A study of Zea mays with 229 samples.

Results

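The genes described here are 4 maize genes for enzymes of lignin monomer synthesis, read as targets in a transcription factor assay of leaf protoplasts. They were chosen by identifier from the target column of the authors' deposited table of edges, where they stand among 19787 target genes. Protoplasts (plant cells freed of their walls) of the inbred line B73 came from dark-grown seedlings, received a p1107 plasmid with 1 of 23 transcription factors or the empty vector, and were sorted for red fluorescence. The labels give 152 factor libraries and 77 empty vector libraries in 11 batches, of which 115 were with nitrogen and 114 without. Titles call the empty vector p1107NLSmyc in 38 libraries, p1107 in 28 and EV in 11. An edge pairs a factor with a gene that the authors took as its target. No size, direction, p-value, nitrogen condition or batch comes with it, and library depth is unknown. The factor was expressed from a plasmid in isolated cells, so the lists describe its transient overexpression and not its action in the plant.

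Lignin stiffens plant cell walls and is built from monolignols, which are made from phenylalanine by way of hydroxycinnamoyl-CoA esters, aldehydes and alcohols. Caffeoyl-CoA O-methyltransferase (CCoAOMT) turns caffeoyl-CoA into feruloyl-CoA, and Zm00001d036293 and Zm00001d045206 are genes of this enzyme. Cinnamoyl-CoA reductase (CCR, Zm00001d032152) makes hydroxycinnamaldehydes from the CoA esters and is the first enzyme committed to monolignols. Cinnamyl alcohol dehydrogenase (CAD, Zm00001d015618, the bm1 gene) makes the alcohols from the aldehydes. Mutants of bm1 have brown leaf midribs and altered lignin. The enzyme names are those given for these identifiers in the description of the gene set. A RefSeq gene table of a different assembly held 0 of the identifiers, so neither sequences nor positions are given for them.

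Lignin monomer genes were listed by most regulators. In the authors' deposited table they had 59 of the 92 edges possible with 23 regulators (64.1%), against 20.3% of the possible edges over all listed genes. Their median was 14 regulators per gene, against 3 over all listed genes. The CCoAOMT gene Zm00001d045206 had the most regulators, 19 of 23, and 0.531% of all listed genes had as many or more. bm1 followed with 15 regulators (3.84% of genes had as many or more), the CCR gene with 13 (7.22%) and the CCoAOMT gene Zm00001d036293 with 12 (9.26%). The last 3 of these counts differ by at most 2 regulators from one to the next, and edges carry no error with which to compare them. The members were chosen with earlier results known, so no test was made of these counts.

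**Figure D1:**
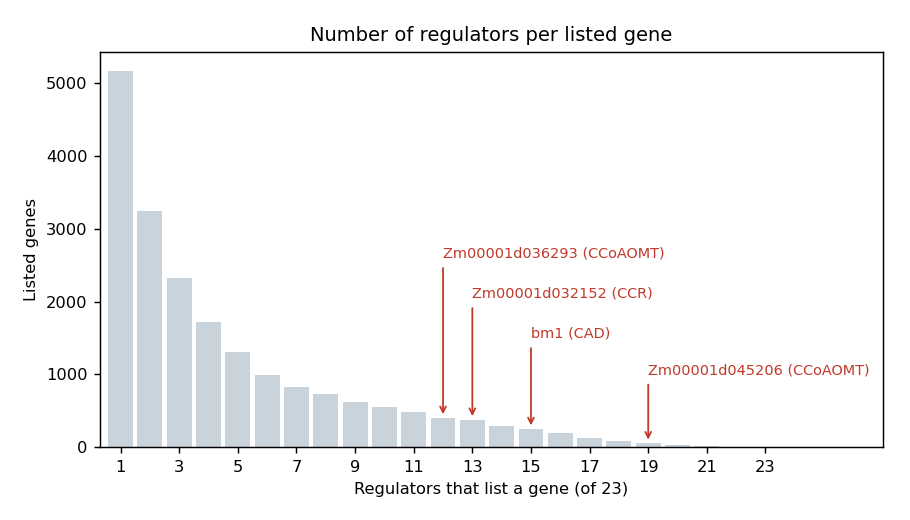
Bars give the number of listed genes (vertical axis) by the number of regulators, of 23, that list them (horizontal axis), and arrows mark the 4 lignin monomer genes. The genes stand at 12, 13, 15 and 19 regulators, above the median of 3.

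The regulators of each gene were read in the order of the pathway. Zm00001d045206 was listed for G2, HB6, MYB121, MYB21, MYB34, MYB56, MYB81, MYBR3, NAC109, NAC5, NAC61, NAC66, WRKY107, WRKY36, bHLH47, bHLH92, bZIP9, Zm00001d003176 and Zm00001d032024. The 4 regulators that did not list it were EREB115, GLK44, Orphan42 and Zm00001d033859. The other CCoAOMT gene, Zm00001d036293, was listed for EREB115, G2, GLK44, MYB121, MYB56, NAC61, WRKY107, WRKY36, bHLH47, bZIP9, Zm00001d003176 and Zm00001d032024. The CCR gene was listed for G2, GLK44, HB6, MYB121, MYB56, NAC5, NAC61, Orphan42, WRKY107, WRKY36, bHLH47, bHLH92 and Zm00001d003176. bm1 was listed for EREB115, G2, GLK44, HB6, MYB121, MYBR3, NAC109, NAC5, NAC61, Orphan42, WRKY107, WRKY36, bHLH47, bZIP9 and Zm00001d032024. Identifiers stand for 3 regulators that no sample title pairs with a plasmid.

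**Figure D2:**
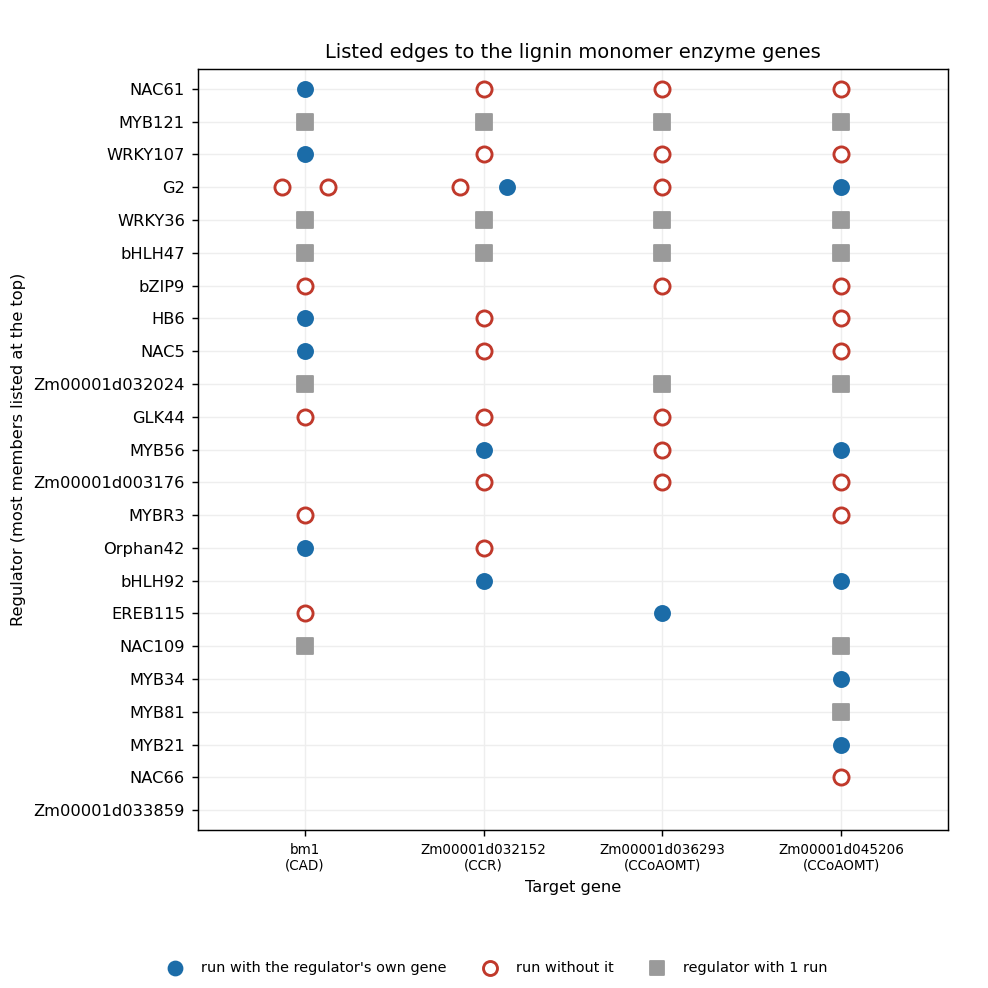
Each mark is 1 listed edge from a regulator (rows, those with most of the 4 genes at the top) to a lignin monomer gene (columns). Filled circles are edges in the run of table rows that holds the regulator's own gene, open circles edges in a run without it, and squares edges of a regulator with 1 run; G2 has marks side by side where it lists a gene 2 times. The top 6 rows are filled across and the bottom row is empty.

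The 2 CCoAOMT genes differed in which regulators listed them. They shared 10 regulators, 83.3% of the 12 of Zm00001d036293 and 52.6% of the 19 of Zm00001d045206. Over all 23 regulators, 82.6% listed Zm00001d045206 and 52.2% listed Zm00001d036293. The overlap was therefore near that of independent lists of these lengths. Listed for Zm00001d045206 and not for Zm00001d036293 were 9 regulators, HB6, MYB21, MYB34, MYB81, MYBR3, NAC109, NAC5, NAC66 and bHLH92. Listed for Zm00001d036293 and not for its partner were EREB115 and GLK44. Orphan42 and Zm00001d033859 listed neither gene. By plasmid name, Zm00001d045206 was listed for all 5 MYB and all 4 NAC factors matched to an identifier, which held for 24 of the 19787 listed genes (0.121%). Zm00001d045206 has 19 regulators of 23, and a gene with that many can easily include whole families. How far this accounts for the share was not tested. As many regulators or more were found for 105 listed genes (0.531%), and the 24 were not compared with these. The plasmids KN1, NLP3 and ZmMYB38 carry no identifier in the titles and were not assigned to the 3 regulators given by identifier. The MYB counts therefore leave ZmMYB38 out. They also leave out MYBR3, which listed bm1 and Zm00001d045206. MYB and NAC factors include known regulators of secondary cell walls in Arabidopsis, a role that was not tested here. The other members had fewer edges from these families. Of the 5 matched MYB factors, 1 listed bm1 (MYB121), while MYB121 and MYB56, 2 in number, listed both the CCR gene and Zm00001d036293. Of the 4 matched NAC factors, 3 listed bm1 (NAC109, NAC5 and NAC61), 2 listed the CCR gene (NAC5 and NAC61) and 1, NAC61, listed Zm00001d036293. Both WRKY factors listed every one of the 4 genes, and their lists are long, with 32.3% (WRKY107) and 23.6% (WRKY36) of all listed genes. The same percentage is given below for each MYB and NAC factor, and these family counts were not tested.

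Members were next counted per regulator, beside the percentage of all listed genes that the regulator lists. All 4 genes were targets of NAC61 (which lists 41.9% of all listed genes), MYB121 (32.8%), WRKY107 (32.3%), G2 (28.1%), WRKY36 (23.6%) and bHLH47 (14.5%). These 6 regulators had 305 listed genes in common, 1.54% of the total. bHLH47 had the shortest list of the 6, with 2874 targets. G2 is Golden2, a regulator of chloroplast development, and its 14 libraries came from 2 batches. In the titles of one of these batches, with 8 G2 and 8 empty vector libraries, the prefix G2plant stands before the plasmid name, and the labels do not explain it. A further 7 regulators listed 3 of the 4 genes. bZIP9 (40.8%) and Zm00001d032024 (23.7%) lacked the CCR gene. HB6 (33.7%) and NAC5 (30.6%) lacked Zm00001d036293, and GLK44 (11.2%) lacked Zm00001d045206. MYB56 (10.4%) and Zm00001d003176 (9.45%) lacked bm1.

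Smaller sets were found for the other 10 regulators. MYBR3 (21.5%) listed bm1 and Zm00001d045206, and so did NAC109 (3.33%), which has the shortest list of all at 658 genes. Orphan42 (20.2%) listed bm1 and the CCR gene, bHLH92 (18.6%) listed the CCR gene and Zm00001d045206, and EREB115 (13.9%) listed bm1 and Zm00001d036293. Zm00001d045206 was the 1 member listed for MYB34 (22.2%), MYB81 (14.5%), MYB21 (8.96%) and NAC66 (7.73%). Zm00001d033859 (3.35%) listed no member, and its list held 663 genes.

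**Figure D3:**
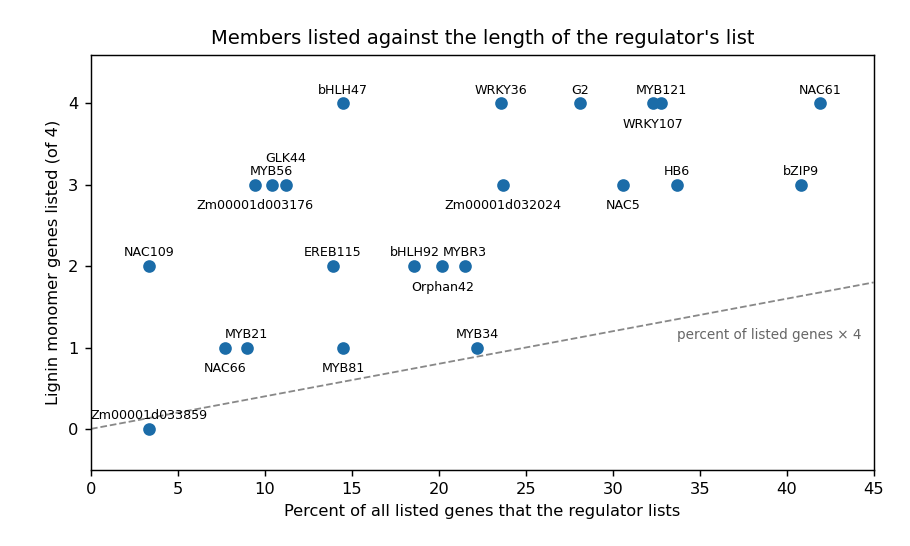
Each point is 1 regulator, by the percentage of all listed genes that it lists (horizontal axis) and the number of the 4 lignin monomer genes it lists (vertical axis). The dashed line is the count if each of the 4 genes were listed as often as all listed genes are on average for that regulator. bHLH47 listed all 4 genes at 14.5%, while MYB34 listed 1 gene at 22.2%.

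The counts were set against the batches, since regulators of a batch may have been compared with the same empty vector libraries. The batch of MYB121, bHLH47, WRKY36 and MYB81 had 4, 4, 4 and 1 members listed. The batch of NAC61, WRKY107, NAC5 and bHLH92 had 4, 4, 3 and 2. The regulators that listed all 4 genes came from these batches and from those of G2. The matched regulators of Zm00001d045206 came from all 9 batches with a matched regulator, and those of each of the other genes from 7. G2 was counted in both of its batches, although each CCoAOMT gene was in only 1 of its 2 listings. For the CCoAOMT genes the number of batches is therefore an upper limit. Leaving out the regulators of each of these 9 batches in turn, the CCR gene was listed for 47.4% to 65% of the remaining regulators, bm1 for 60% to 68.2%, Zm00001d036293 for 47.4% to 60% and Zm00001d045206 for 78.9% to 90%. The 3 regulators of unknown batch, Zm00001d003176 among them, stayed in each time.

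One group of edges rests on rows that stand in the table under a pair of regulators. Zm00001d003176 has a run of 1335 consecutive rows, all of whose genes are also in the MYB56 list. All 3 of its edges to members (the CCR gene and both CCoAOMT genes) are in that run, and 0 are among its other 535 rows. MYB56 lists the same 3 genes. Without that run the CCR gene had 12 regulators, Zm00001d036293 had 11 and Zm00001d045206 had 18, and bm1 was unaffected with 15.

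The likeness of members in their regulators was described for the 6 pairs by the Jaccard index, the number of shared regulators divided by the number that list either gene. It averaged 0.542 and ranged from 0.476 to 0.588. bm1 and Zm00001d036293 were most alike, with 10 shared regulators of 17 (0.588), which are 66.7% of those of bm1 and 83.3% of those of Zm00001d036293. The CCR gene shared 9 of 16 with Zm00001d036293 (0.562) and 10 of 18 with bm1 (0.556). By this index the 2 CCoAOMT genes, of the same enzyme, were the least alike of the 6 pairs with 10 of 21 (0.476). They have 12 and 19 regulators, and such a difference in number limits how high the index can be. The order of the pairs differs with the phi coefficient, given in the last section. Each member had a median index of 0.154 to 0.188 with all listed genes. As each member has at least 12 regulators, the index was also taken with the 1828 other genes that have as many as that. With those genes the median was 0.526 for bm1, 0.5 for the CCR gene, 0.444 for Zm00001d036293 and 0.6 for Zm00001d045206. Of them, 30.3% were at least as alike to bm1 as Zm00001d036293 was, and 7.93% were at least as alike to Zm00001d036293 as bm1 was. At least as alike to Zm00001d045206 as the other CCoAOMT gene were 94.4% of them. From the other side, 35.1% were at least as alike to Zm00001d036293 as Zm00001d045206 was. Zm00001d036293 has 12 regulators, the fewest that this group of genes allows, which lowers its index with a gene of 19. The pairs thus lay within the range of often-listed genes. Regulators of a batch are not independent, so the index is a description with no p.

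For each member the most alike gene outside the set was sought, by the same index over 23 regulators. Each gene found had a higher index than any pair of members, but it is the highest of all listed genes outside the set. Zm00001d001865 was listed for the 19 regulators of Zm00001d045206 and for GLK44 (0.95). Zm00001d018803 shared 14 of 16 regulators with bm1 (0.875), Zm00001d007264 shared 12 of 14 with the CCR gene (0.857), and Zm00001d039882 shared 12 of 15 with Zm00001d036293 (0.8). The files give no name for these genes. Genes with directly neighbouring identifiers were also looked up. Of 8 such identifiers 2 were listed, Zm00001d045207 with 15 regulators and Zm00001d032153 with 10. Zm00001d045207 shared 11 regulators with Zm00001d045206, a Jaccard index of 0.478 that 10.3% of all listed genes reached or passed. That index is below 0.6, the median of Zm00001d045206 with the often-listed genes. Zm00001d032153 shared 5 with the CCR gene (0.278), which 27.7% reached or passed.

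Row order was examined as a further readout of the authors' deposited table. Consecutive rows of 1 regulator form a run, and there are 42 runs. For 16 regulators there are 2 runs that share no gene, and the regulator's own gene stands in 1 of them. It is the opening row in 9 of all runs. The labels do not say what separates the runs or what orders their rows, so a run is described by whether it holds the regulator's own gene and is not read as a direction. In these 16 regulators the members had 37 edges, 12 in the run with the own gene (32.4%) and 25 in the run without it, against 45.5% with it over all listed genes. Without the run of Zm00001d003176 whose genes are all in the MYB56 list, the counts were 12 and 22. bm1 had 5 edges in the run with the own gene (HB6, NAC5, NAC61, Orphan42 and WRKY107) and 4 in the run without it (EREB115, GLK44, MYBR3 and bZIP9). Zm00001d045206 had 4 and 8, the CCR gene had 2 and 7, and Zm00001d036293 had 1 and 6. Run sizes differ between regulators, so these counts are not tested.

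The enzymes of the pathway's reducing steps were compared in this respect. The genes of CCR and of CAD (bm1) were both listed for 6 of the 16 regulators. In 5 of them (HB6, NAC5, NAC61, Orphan42 and WRKY107) bm1 was in the run with the own gene and the CCR gene in the run without it, and for GLK44 both were in the run without it. Among genes that shared at least 6 of these regulators with bm1, 14.5% were in the other run in as large a share of them or larger, and with the CCR gene 4.44% were. NAC5, NAC61 and WRKY107 belong to 1 batch. Zm00001d045206 and the CCR gene were in the same run for all 7 regulators that they shared. Of 841 other genes that shared at least 7 of these regulators with the CCR gene, 16 (1.9%) were always in its run. The 2 CCoAOMT genes were in the same run for 4 of 5 regulators, MYB56 being the exception. These pairs were chosen after their values were seen, and 1 of the shared regulators in the last 2 comparisons is Zm00001d003176, whose rows also stand under MYB56.

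G2 has 4 runs. Joined into pairs of runs with no common gene, they form 2 listings of 2487 and 4853 genes, each with the own gene in 1 of its runs. bm1 and the CCR gene were in both listings, and each CCoAOMT gene was in 1. bm1 was in the run without the own gene both times, at row 503 of 1701 in the smaller listing and at row 184 of 2317 in the larger. The CCR gene was in the run without the own gene in the smaller listing, at row 1195 of 1701, and in the run with it in the larger, at row 915 of 2536. Zm00001d036293 was at row 1669 of 1701 in the smaller listing, and Zm00001d045206 was at row 2100 of 2536 in the larger. Of all 1771 genes in both listings, 1006 (56.8%) were, like the CCR gene, in a run with the own gene in one listing and in a run without it in the other. The labels do not tie a listing to a G2 experiment.

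In the list of MYB121 all 4 members stood near the top. Zm00001d045206 was at row 21, bm1 at row 36, Zm00001d036293 at row 75 and the CCR gene at row 158 of 6491, and the own gene of MYB121 was at row 227. The first 158 rows are 2.43% of that list. Of the 1469 other genes in it with at least 12 regulators, 35 (2.38%) were in those rows, and the genes of at least 12 regulators had a median place at 27.8% of the rows. The cutoff of 158 rows is the place of the last member, so the members fall within it by definition. MYB121 was singled out after the values were seen, and its rows were not tested. No other regulator had all the members it listed so near the top. For NAC5 its 3 members stood within the first 16.4% of their runs, and for Zm00001d032024 bm1 was at row 187, Zm00001d036293 at row 498 and Zm00001d045206 at row 1408 of 4696. For bHLH47 the CCR gene was at row 115, Zm00001d036293 at row 199, bm1 at row 715 and Zm00001d045206 at row 1202 of 2874. Over all 61 rows of members the median place was 27.7% of the run, and 45.9% were in the first 25%. Genes of at least 12 regulators had a median of 29.1% and 44.6% of rows in the first 25%, so members as a set stood about where often-listed genes stand. By gene the median place was 17.4% for Zm00001d036293, 22.6% for bm1, 33.7% for Zm00001d045206 and 40.9% for the CCR gene.

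**Figure D4:**
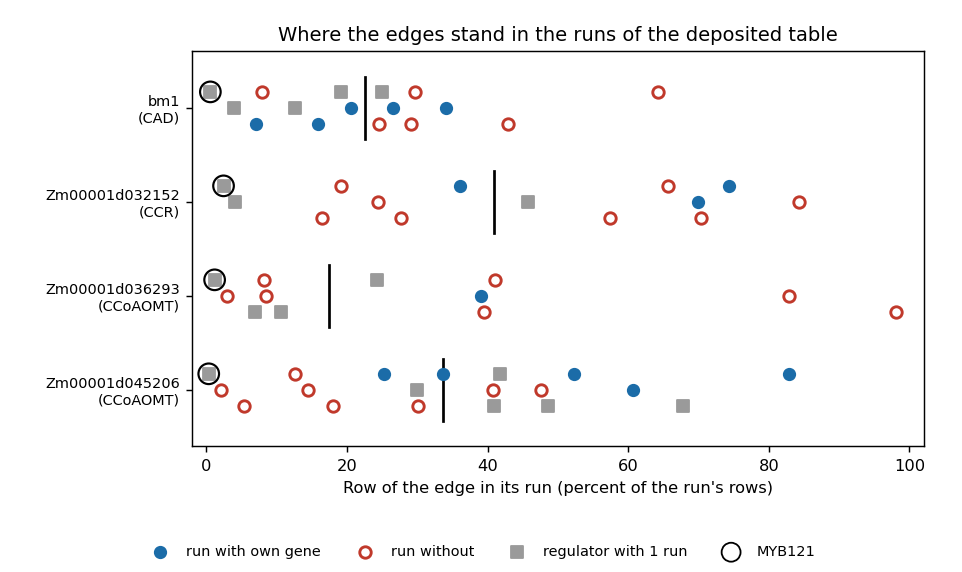
Each mark is 1 row of a lignin monomer gene (vertical axis), placed by its row as a percentage of the rows of its run (horizontal axis). Mark shapes show whether the run holds the regulator's own gene, black lines are medians and rings mark MYB121. All 4 rings lie within the first 2.43% of rows, while the other marks reach 98.1%.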

How the data were processed

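The authors deposited 1 table of edges, which holds text identifiers of a regulator and a target and no numeric value. The submitters' processing notes name featureCounts, edgeR and, as genome build, B73 RefGen_v4; versions and thresholds are not given there. Libraries were QuantSeq, which reads the 3' end of messenger RNA, per the labels' protocols. Each combination of plasmid, nitrogen and batch had 2 to 4 libraries, and the labels do not say whether these came from separate protoplast preparations.

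The 94256 rows gave 92485 distinct edges. Sample titles paired 20 of 23 regulators with a plasmid and batch. Percentages of genes use the 19787 listed genes, since the table names no gene that was tested and not listed. No test was run, because edges carry no replicate values. Leaf markers could not be checked without expression levels. A further gene of the chosen set is not reported here. The members and lists were chosen with earlier results of these data known. The genes named beside members are those with the highest Jaccard index, 1 per member. Pathway genes beyond the members could not be counted without gene names. The functions were tested on simulated data. The software was Python 3.11.15 with pandas 2.3.3, numpy 2.4.6, scipy 1.17.1 and matplotlib 3.10.9.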

Additional observations from a re-analysis of the deposited data

How the results depend on the processing

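Leaving out the run of Zm00001d003176 whose genes are all MYB56 targets, that regulator listed 0 members in place of 3, since its 3 edges were in the rows left out. When G2 edges were required in both listings, G2 listed 2 members in place of 4. With the phi coefficient in place of the Jaccard index, bm1 and Zm00001d045206 had -0.09, below the value for independent lists, where the Jaccard index was 0.545. The other 5 pairs were above 0, with 0.4 for bm1 and Zm00001d036293, 0.39 for the CCR gene and Zm00001d036293, 0.28 for bm1 and the CCR gene, 0.06 for the CCR gene and Zm00001d045206, and 0.02 for the 2 CCoAOMT genes. The phi coefficient counts regulators that list neither gene, of which Zm00001d045206 has few. Regulator counts per member stayed within 1.5 times in their alternatives. The mean Jaccard index over the 6 pairs was 0.468 to 0.591 when the matched regulators of each batch were left out. The alternatives without that run for the mean index and the run counts were chosen after seeing the data. No paired analysis was possible because edges have no value for any library. How far sequencing depth set the lists is unknown.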
